A study of Mus musculus with 3 samples.

Results

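The genes described here encode ATP-dependent chromatin remodelers with their subunits, histone deacetylases and lysine demethylases. They are the rows of the deposited table whose symbol begins with Smarc, or with Chd, Arid, Hdac or Kdm followed by a digit. Of 60 such rows, 5 were left out by name (Kdm2b, Kdm3a, Kdm5d, Kdm6a and Kdm6b), which left 55 of the 15311 genes in the table, namely 14 Smarc, 10 Chd, 10 Arid, 11 Hdac and 10 Kdm genes. All 55 reached the minimum mean level for testing, Arid3c only through its level in the mutant library. Each was measured by RNA-seq of polyadenylated RNA in mouse embryonic stem (ES) cells of the strain labelled V6.5, with KH2 cells named as the parent of the transgenic lines. Wild type was measured in 2 libraries (replicates 1 and 2) and the mutant, K3R3, in 1. Wild-type cells carried a doxycycline-induced (1 µg/ml) transgene for H2A.Z, a variant of histone H2A, joined to a yellow fluorescent protein (YFP). K3R3 cells carried the same transgene with lysines 119, 120 and 123 of H2A.Z replaced by arginine. What both groups shared was a lentiviral vector with a CMV promoter and an rtTA drug-inducible system, sorting for YFP, knockdown of the cells' own H2A.Z by a hairpin that targets its 3′ UTR, and growth in serum and LIF, with feeder fibroblasts removed for the last passage. The labels do not say which of the listed hairpins these libraries carried, whether a line was 1 clone, or whether the wild-type replicates were separate cultures. The p-values therefore measure the spread between these samples alone, and it may be technical. Library totals lay between 21614693 and 25426228 counts.

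Chromatin remodelers use ATP to slide, evict or restructure nucleosomes. In ES cells the BAF complex is built around the ATPase Smarca4 (Brg1), and the NuRD complex joins a Chd ATPase to the deacetylases Hdac1 and Hdac2. Deacetylases remove acetyl groups from histone tails, and Kdm enzymes remove methyl groups from histone lysines. Many of these subunits come as paralogues that replace each other in a complex, with one form predominating in stem cells and another in neurons or muscle.

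Only Arid3c passed the test between K3R3 and wild type among the 55 genes. The quasi-likelihood test of edgeR was run on the counts of the 13829 genes that averaged 0.5 CPM or more (counts normalised to library size, with TMM factors). Of these, 2.02% were called higher and 0.542% lower at a Benjamini-Hochberg adjusted p under 0.05. Of the 55 genes, 1 was called higher (1.82%) and 0 lower, a share near the 2.57% called in either direction among all tested genes. K3R3 stood at least 2-fold above both wild-type libraries for 1 of the 55 (again Arid3c) and at least 2-fold below both for 0, on CPM plus 1, where 2.19% and 0.159% of all tested genes did. At an unadjusted p under 0.05, 2 lay higher and 2 lower, where 7.9% and 3.33% of all tested genes did. DESeq2 called 0 of the 55 in either direction, where it called 0.239% of all tested genes higher and 0.188% lower. In the authors' deposited table, 2 of the 55 (Arid3c and Kdm4c) had an unadjusted p under 0.05, beside 4.86% of all rows. Most fitted differences were small. The fitted log2 difference lay within 0.5 of zero for 50 of the 55, beside 76.9% of all tested genes. These shares were not matched for level, since 26 of the 55 averaged 100 CPM or more, against 2544 of the 13829 tested genes.

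**Figure D1:**
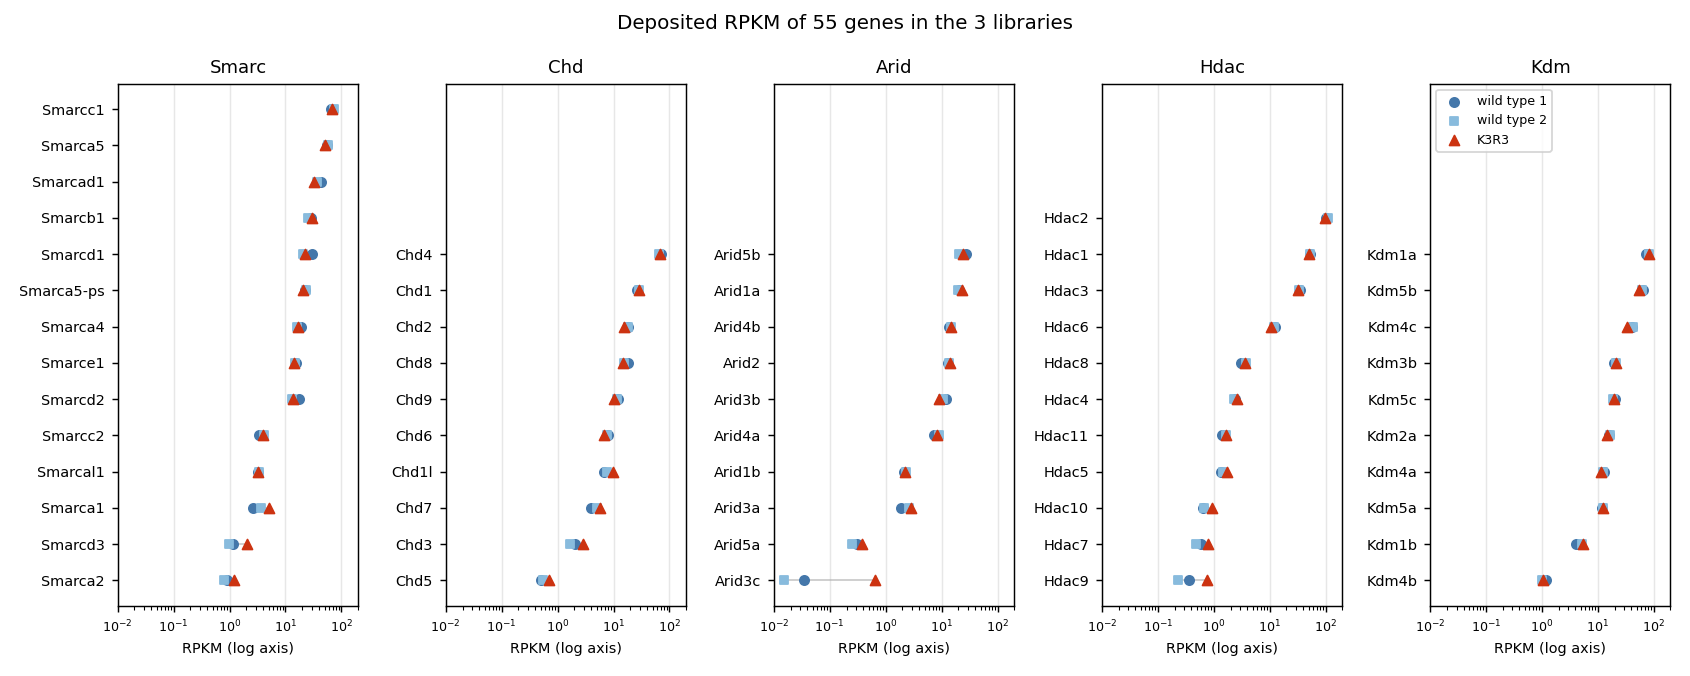
RPKM as deposited (log axis) of each of the 55 genes, with 1 panel per family, in wild-type replicate 1 (circles), wild-type replicate 2 (squares) and K3R3 (triangles). The 3 symbols of most genes overlap, while Arid3c stood at 0.0350 and 0.0150 RPKM in wild type and 0.635 in K3R3.

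Levels between genes were compared by RPKM, the deposited values scaled to gene length and library total. Hdac2 was the most abundant at 101 and 109 RPKM in the wild-type libraries. The lysine demethylase Kdm1a (LSD1), the BAF core subunit Smarcc1 (BAF155) and the NuRD ATPase Chd4 followed, with wild-type values from 65.2 to 81.0 RPKM. The values of Smarcc1 and Chd4 overlapped, and both values of Kdm1a lay above them. Kdm5b, a demethylase of trimethylated H3K4, and the ISWI ATPase Smarca5 came next. At the other end stood Arid3c, Arid5a, Hdac9, Hdac7 and Chd5, each under 0.6 RPKM in both wild-type libraries. The median of the 55 was 12.1 RPKM in wild type, with family medians from 2.38 RPKM (Hdac) to 17.9 RPKM (Kdm).

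Arid3c encodes a member of the ARID3 group of DNA-binding proteins, named for their AT-rich interaction domain. Wild-type replicates 1 and 2 gave 2 and 1 counts, and K3R3 gave 41. On the CPM scale it stood at 0.0951 and 0.0403 in wild type and 1.57 in K3R3, so the groups did not overlap. K3R3 exceeded pooled wild type 24.1 times, with an exact conditional 95% interval of 7.68 to 121 that covers counting error only. The fitted log2 difference was 4.48 (SE 1.30), with an adjusted p of 0.00369 in edgeR. DESeq2 gave it an adjusted p of 0.441. A gene at this level could enter the test only if K3R3 was high, and with a minimum mean of 2 CPM it was not tested. Its paralogues did not share the difference. Arid3b, the most abundant of the 3, stood at 71.3 and 60.4 CPM in wild type and 48.4 in K3R3 (log2 -0.44, SE 0.24, not called). Arid3a stood at 15.7 and 20.9 against 21.4 CPM. Summed over the ARID3 genes, Arid3c supplied 0.249% and 0.116% of the RPKM in wild type and 5.09% in K3R3.

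Of the 55 genes, 45 were coded active in the deposited table and 7 bivalent, a class taken from earlier work in which H3K4 and H3K27 methylation mark the same promoter. Chd8, Hdac4 and Hdac9 had no code. In the bivalent class 6 of 7 genes stood above both wild-type libraries in K3R3, beside 72.9% of all bivalent genes tested, and the median log2 difference was 0.45, beside 0.65. Arid3c, one of the 6, entered the test only through its level in K3R3. Hdac2 was the exception. It is the most abundant of the 55 genes and stood at 314 and 334 CPM in wild type and 277 in K3R3, below both. It was the only bivalent member at 100 CPM or more, where 61.3% of all tested genes stood below both wild-type libraries. Of the 45 active genes 8 stood above and 28 below both wild-type libraries, beside 27.8% and 37.9% of all active genes, with a median of -0.13 beside -0.04. These shares and medians were not matched for level. Of the 45, 24 averaged 100 CPM or more, with a median of -0.18 beside -0.13 for all active genes in that range.

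To show the promoters of bivalent members with the difference of Arid3c, of the next bivalent gene by size, Smarcd3, and of the lone bivalent gene that was not higher, Hdac2, the 30 bases just before each start are given. They come from RefSeq on build GRCm38.p6, not the mm9 build of the counts, and were matched by symbol. CpG dinucleotides are in capitals.
Arid3c (chr4:41731143-41731172, minus strand): gctgagacaggagcCGccCGaaaggCGgca
Smarcd3 (chr5:24602003-24602032, minus strand): gggcCGtgggcCGtcagggcagccctgaag
Hdac2 (chr10:36974514-36974543, plus strand): CGcagcccCGcCGccCGgaggcctacccct
These stretches hold 3, 2 and 4 CpGs. The RefSeq windows from 250 bases before to 50 after the start hold 29 CpGs for Arid3c, 40 for Smarcd3 and 36 for Hdac2. CG reads alike on both strands, and 14.3%, 4.41% and 6.98% of 27025 genes have a window with at least as many. Windows were found for 39 of the 55 genes, counting the richest window of each. The 6 bivalent members with one held 29 to 40 CpGs (median 34) and the 30 active ones 4 to 48 (median 23), beside a median of 8 over all genes in that table. Medians over all bivalent and all active genes were not computed. Hdac9, which has no class, held at most 3. The number for Hdac2 lay within the range of the bivalent members that stood higher in K3R3.

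**Figure D2:**
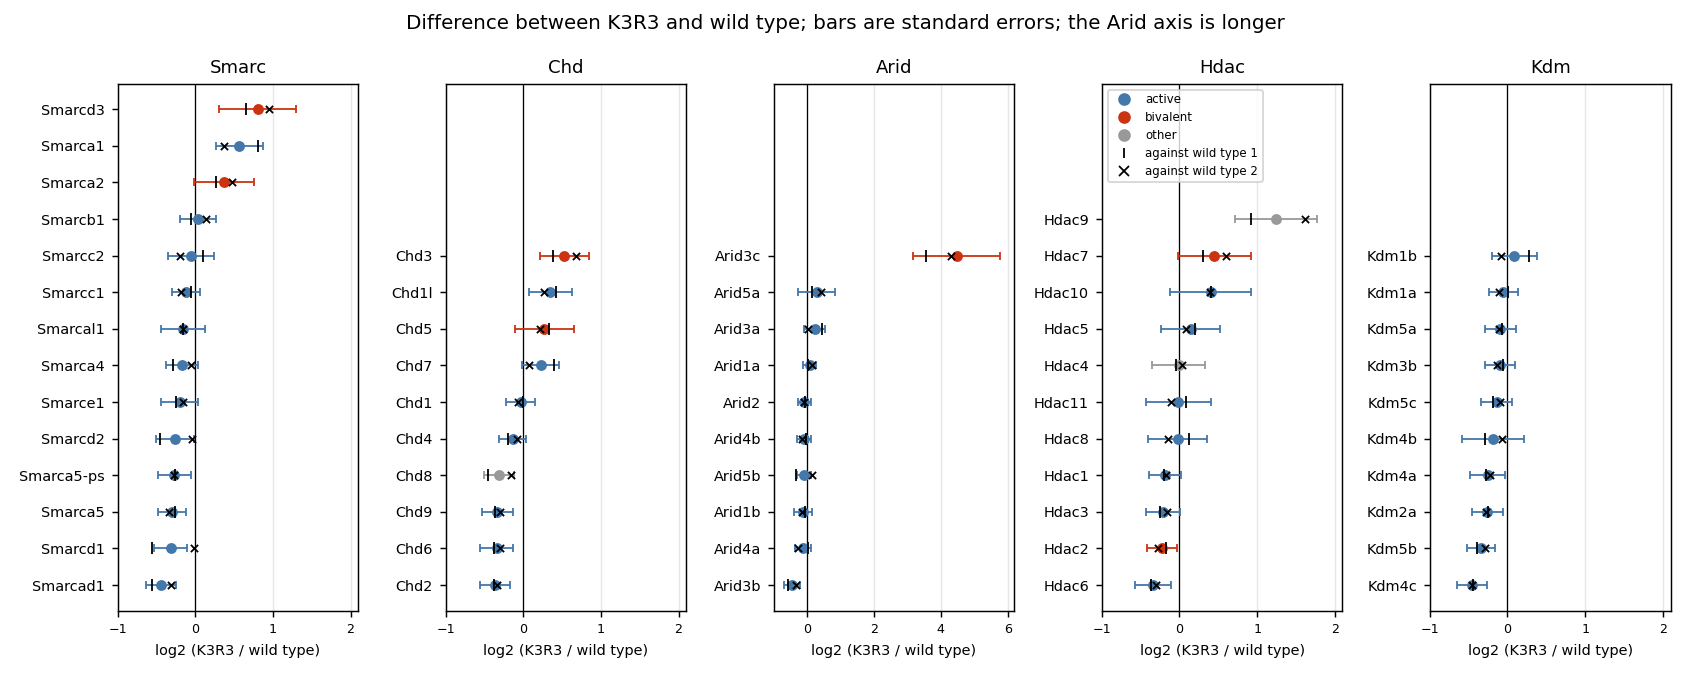
Fitted log2 difference, K3R3 minus wild type, for each gene (points, with standard errors as bars, coloured by promoter class), with the difference against each wild-type library alone (vertical ticks and crosses). Apart from Arid3c, whose panel has a longer axis, the values run from -0.45 for Kdm4c to 1.25 for Hdac9.

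Within the BAF complexes none of the subunits was called. The ATPase Smarca4 stood at 186 and 158 CPM in wild type and 153 in K3R3 (log2 -0.17, SE 0.20), and its paralogue Smarca2 (Brm), which is more abundant in differentiated cells, at 8.18 and 7.05 against 9.83 (0.37, SE 0.38). Their ratio in RPKM was 20.8 and 20.5 in wild type and 14.2 in K3R3. Smarcb1, a core subunit, stood at 72.2 and 63.3 against 69.6 CPM, between the wild-type values. Smarce1 (BAF57), another core subunit, stood at 70.3 and 66.1 against 59.3 CPM. Smarcc1 exceeded Smarcc2 by 19.6 and 17.6 times in wild type and 17.7 times in K3R3, so this ratio did not move beyond the wild-type spread. The Smarcd subunits share a scaffold role, and Smarcd3 (BAF60c) is known from heart and muscle. Smarcd3 stood at 3.14 and 2.54 CPM in wild type and 4.96 in K3R3 (log2 0.80, SE 0.49; adjusted p = 0.615 in edgeR). The groups did not overlap, but K3R3 stood above both wild-type libraries for 55.4% of all tested genes under 10 CPM. The difference was not called, and exons of Chpf2 lie on the opposite strand of Smarcd3 in GENCODE M21. Smarcd1, the main form, stood at 146 and 101 CPM in wild type and 99.2 in K3R3, so the wild-type libraries differed more from each other (log2 -0.54) than K3R3 did from replicate 2 (-0.02). Smarcd2 had the same order, with -0.41 between the wild-type libraries. Of the ARID subunits that target BAF, Arid1a stood at 264 and 241 against 267 CPM and Arid1b at 37.9 and 40.6 against 36.2. Arid2, of the PBAF form, stood at 185 and 191 against 177 CPM.

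The ISWI ATPases slide and space nucleosomes. Smarca5 (Snf2h) stood at 393 and 415 CPM in wild type and 328 in K3R3 (log2 -0.30, SE 0.18), and Smarca1 (Snf2l), known from neurons, at 16.9 and 23.0 against 29.6 (0.57, SE 0.31). In both genes K3R3 lay outside the wild-type values, in opposite directions, and neither was called (adjusted p of 0.640 and 0.486 in edgeR). Of all tested genes, only 31.9% lay between the wild-type values in K3R3. The RPKM ratio of Smarca5 to Smarca1 was 20.4 and 15.8 in wild type and 9.68 in K3R3. Smarca5-ps is a pseudogene of Smarca5 that can share its reads, and its log2 difference of -0.27 lay near that of the parent. Whether these rows share reads was not tested, and they may not be independent. Smarcad1, a remodeler that acts in DNA repair and in silencing of repeats, stood at 337 and 285 CPM in wild type and 229 in K3R3 (log2 -0.44, SE 0.19; unadjusted p = 0.0222, adjusted p = 0.288). Smarcal1, which anneals DNA at stalled replication forks, stood at 34.2 and 34.4 against 30.8 CPM.

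None of the CHD remodelers was called. Chd1, which supports open chromatin in ES cells, stood at 324 and 340 CPM in wild type and 324 in K3R3. Its paralogue Chd2 stood at 260 and 253 against 200 CPM (log2 -0.36, SE 0.19; adjusted p = 0.518 in edgeR). Hence the RPKM ratio of Chd1 to Chd2 was wider in K3R3, at 1.86, than in wild type, at 1.43 and 1.54. Among the NuRD ATPases Chd4 supplied 96.5% and 96.7% of the RPKM in wild type and 94.9% in K3R3. The bivalent gene Chd3 stood at 19.3 and 15.7 CPM in wild type and 25.1 in K3R3 (log2 0.52, SE 0.32), and Chd5, a neuronal form, at 7.37 and 8.02 against 9.30. Both were higher in K3R3 than in either wild-type library, as were 33.9% of all tested genes. Of the class III genes, Chd6, Chd8 and Chd9 stood below both wild-type libraries with log2 differences of -0.34, -0.31 and -0.33, and Chd7, which is mutated in CHARGE syndrome, above both at 57.8 and 72.5 against 76.1 CPM. The difference of Chd7 from replicate 2 (log2 0.07) was smaller than that between the wild-type libraries (0.33). Chd1l, a remodeler recruited by poly(ADP-ribose), stood at 31.3 and 35.0 against 42.2 CPM.

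The remaining ARID genes were close to wild type. Arid4a and Arid4b, which associate with the SIN3 deacetylase complex, had log2 differences of -0.13 and -0.09. Arid5b, a partner of the demethylase Phf2, stood at 194 and 140 CPM in wild type and 155 in K3R3, between the replicates. Arid5a stood at 2.71 and 2.22 against 3.00 CPM.

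Among the class I deacetylases, which include the catalytic subunits of NuRD, SIN3, CoREST and NCoR, the ratio of the main forms lay between the wild-type ratios. Hdac1 stood at 162 and 158 CPM in wild type and 141 in K3R3, and the RPKM ratio of Hdac2 to Hdac1 was 1.91 and 2.08 in wild type and 1.94 in K3R3. Hdac3, of the NCoR complex, stood at 109 and 102 against 91.7 CPM and Hdac8, which acts on cohesin, at 8.13 and 9.87 against 8.87. The class IIa genes, whose proteins shuttle to the nucleus and restrain muscle and vascular programmes, were scarce in all 3 libraries. Hdac9 stood at 2.52 and 1.53 CPM in wild type and 4.80 in K3R3 (53 and 38 counts against 125). Its groups did not overlap, and its log2 difference of 1.25 (SE 0.53) had an unadjusted p of 0.0148 and an adjusted p of 0.229. Against replicates 1 and 2 alone it was 0.92 and 1.62. Under 10 CPM, where Hdac9 lies, K3R3 stood above both wild-type libraries for 55.4% of all tested genes. Hdac7 stood at 0.586 and 0.486 RPKM in wild type and 0.798 in K3R3. In CPM, Hdac5 stood at 8.04 and 8.70 against 9.26, and Hdac4 at 14.8 and 14.1 against 14.4. Hdac9 supplied 7.73% and 4.97% of the class IIa RPKM in wild type and 13.1% in K3R3. Of the class IIb genes, Hdac6, a cytoplasmic deacetylase of tubulin, stood at 79.1 and 75.9 against 61.4 CPM and Hdac10, a polyamine deacetylase, at 2.71 and 2.74 against 3.61. Hdac11 lay between the wild-type values.

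In the demethylase family 9 of 10 genes had a fitted log2 difference below 0, 8 stood below both wild-type libraries and 0 above both. Of all tested genes 48% had a fitted value above 0 and 34.2% stood below both wild-type libraries. At 100 CPM or more, where most of the 10 lie, these shares were 18.1% and 61.3%. None of the 10 was called. With the library totals implied by RPKM the family median was -0.04 instead of -0.16, and Kdm1a, Kdm3b and Kdm5a lay above 0. Kdm4c (Jmjd2c), a demethylase of H3K9 and H3K36 that ES cells express highly, stood at 270 and 274 CPM in wild type and 199 in K3R3. The wild-type libraries differed by a log2 of 0.02, whereas K3R3 differed from them by -0.44 and -0.46. The fitted difference was -0.45 (SE 0.19), with an unadjusted p of 0.0213 and an adjusted p of 0.281. Its paralogue Kdm4a stood at 91.7 and 88.4 against 75.4 CPM and Kdm4b at 8.37 and 7.21 against 6.84. Kdm5b, the most abundant of the Kdm5 genes by RPKM, stood at 633 and 588 CPM in wild type and 483 in K3R3 (log2 -0.34, SE 0.18; adjusted p = 0.486 in edgeR), and its paralogues Kdm5a and Kdm5c differed by -0.09 and -0.14. Kdm1a, the flavin-dependent demethylase of the CoREST complex, stood at 344 and 374 against 346 CPM, and Kdm1b at 26.9 and 34.6 against 32.7. Both lay between their wild-type values. Kdm2a, which binds CpG islands, stood at 180 and 184 against 152 CPM, and Kdm3b, an H3K9 demethylase, at 218 and 231 against 210.

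Counted over the 55 genes, K3R3 lay below both wild-type libraries for 30, above both for 15 and between them for 10. Over all tested genes these shares were 34.2%, 33.9% and 31.9%. The direction of small differences rested on the scaling. On the deposited RPKM scale, whose library totals raise the median of all genes by 0.12 log2 units relative to TMM, 18 of the 55 lay below both and 21 above both, beside 19.2% and 48.7% of all tested genes. The median log2 difference of the 55 was -0.10 with TMM and 0.016 with those totals, and that of all tested genes was -0.01 with TMM.

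The difference followed the level of the gene. Of the 26 genes that averaged 100 CPM or more, 25 had a fitted value below 0, where only 18.1% of all tested genes in this range lay above 0. Of the 26, 22 stood below both wild-type libraries, where 61.3% of all tested genes in this range did. The median of the 26 was -0.20, beside -0.13 for all genes of that range. Of the 12 genes under 10 CPM, 9 had a value above 0, beside 69% of all tested genes in that range. The median of the 12 was 0.33 beside 0.28, and 9 stood above both wild-type libraries, beside 55.4%. Both counts of 9 include Arid3c, which could enter the test only if K3R3 was high. Of the 12, 5 were bivalent, and the 6 active ones had a median of 0.07, beside 0.20 for all active genes under 10 CPM. Between the wild-type libraries the corresponding medians of the 55 genes were -0.04 at 100 CPM or more and -0.21 under 10 CPM. Across the 55 genes, Arid3c included, Spearman's rho between mean CPM and log2 difference was -0.63, beside -0.41 across all tested genes. This is a correlation across genes that share the same 3 libraries, and genes are not independent replicates. On the RPKM scale 13 of the 26 abundant genes lay below both wild-type libraries, beside 31.9% of all genes in that range.

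**Figure D3:**
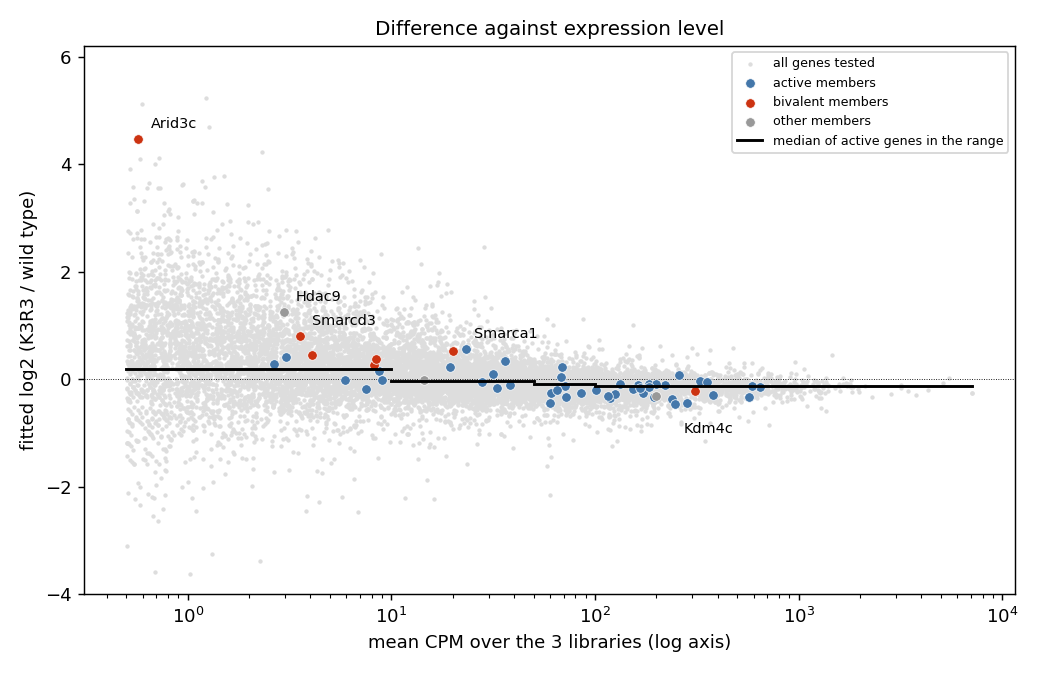
Fitted log2 difference, K3R3 minus wild type, against mean CPM over the 3 libraries (log axis) for all 13829 tested genes (grey) and the 55 genes, coloured by promoter class. Black lines are the medians of active genes in 4 ranges of CPM, 0.20 in the lowest and -0.13 in the highest, and the members run from above 0 on the left to below 0 on the right.

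Paralogues were compared within each library, where the scaling cancels. The 55 genes include 19 groups of related genes with 47 members (Kdm4d was not analysed here), giving 28 ratios of the most abundant paralogue, chosen by its wild-type RPKM, to another. The order within all 28 was the same in the 3 libraries. In 20 of the 28 the ratio in K3R3 lay below both wild-type ratios, in 2 above both (Arid1a to Arid1b and Chd1 to Chd2) and in 6 between. The less abundant gene had the higher log2 difference in 23 of 28. Over all 28 the median of its log2 difference minus that of the most abundant paralogue was 0.26. Both the 20 and the 23 include Arid3b to Arid3c, and Arid3c entered the test only through its level in K3R3. Besides Arid3b to Arid3c (346 and 694 in wild type, 14.2 in K3R3), the ratio of Smarcd1 to Smarcd3 was 25.4 and 21.7 in wild type and 10.9 in K3R3. Hdac4 exceeded Hdac9 by 6.62 and 10.4 times in wild type and 3.36 times in K3R3. Hdac6 exceeded Hdac10 by 19.0 and 18.1 times in wild type and 11.1 times in K3R3. Chd4 exceeded Chd3 by 34.5 and 39.3 times in wild type and 23.1 times in K3R3. No ratio was tested, since 2 libraries against 1 cannot pass 0.05 by an exact permutation test. The ratios within a group share a numerator, the most abundant paralogue. Their direction in most cases was that of the slope over expression seen across all genes. Ratios of unrelated genes at like levels were not computed, so whether the pattern is particular to paralogues was not tested.

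**Figure D4:**
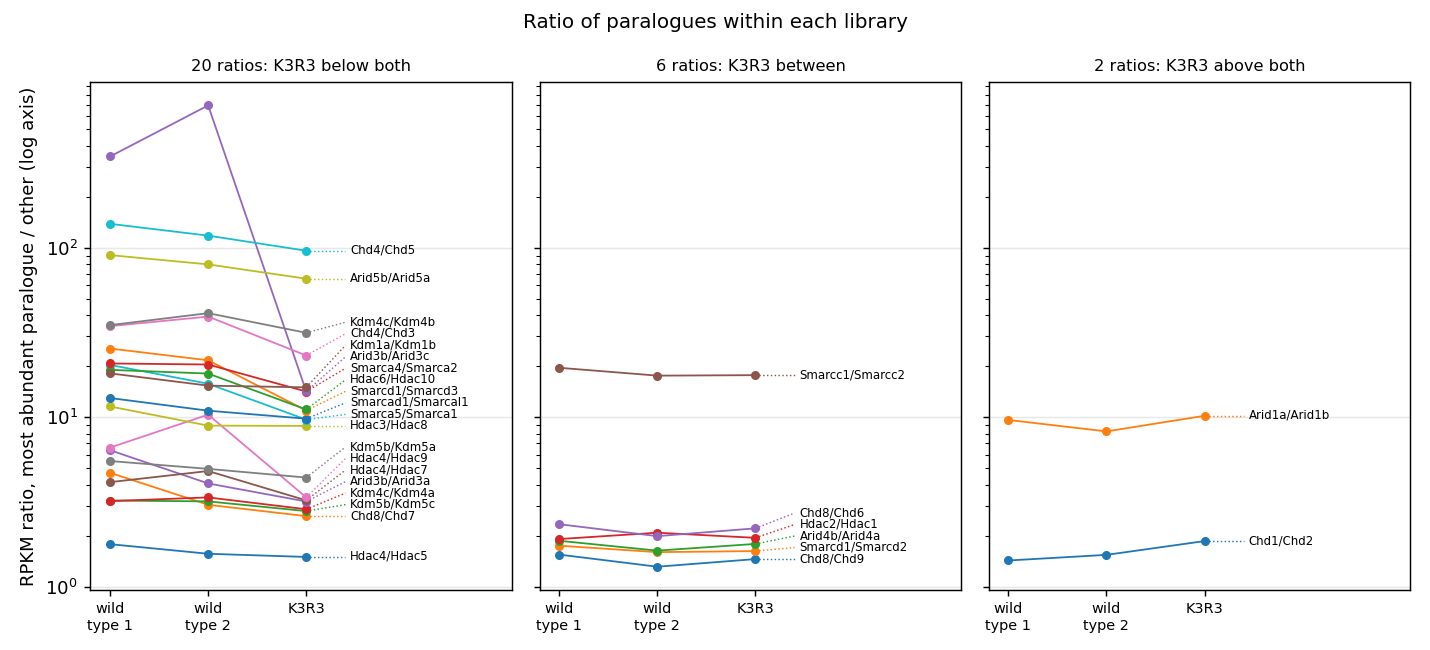
RPKM ratio (log axis) of the most abundant paralogue to each other member of its group in the 3 libraries, with 1 line per ratio, split by whether K3R3 lay below, between or above the wild-type ratios. The 20 lines of the left panel end lower than both wild-type points, most steeply for Arid3b to Arid3c.

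Partner subunits and related enzymes were counted from 9 lists. Of 113 such genes tested, 0 were called higher and 0 lower. DESeq2 also called 0, and at an unadjusted p under 0.05 edgeR gave 0 higher and 5 lower, beside 7.9% and 3.33% of all tested genes. The median log2 difference of the 113 was -0.10, as it was for the 55. K3R3 stood below both wild-type libraries for 56 and above both for 19, beside 34.2% and 33.9% of all tested genes. These shares were not matched for level. At 100 CPM or more, where part of the 113 lie, 61.3% of all tested genes stood below both. The position of the partners was read with TMM only. The list medians were -0.11 for 16 BAF and PBAF partners, -0.13 for 12 NuRD partners, -0.29 for 10 ISWI partners, -0.09 for 14 SIN3 partners, -0.12 for 16 CoREST and NCoR partners, -0.20 for 7 sirtuins, 0.07 for 12 other JmjC proteins, -0.07 for 13 acetyltransferases and -0.08 for 13 methyltransferases of H3K9 and H3K36. The ISWI partners had the lowest median of the 9 lists. Cecr2, a bromodomain partner of the ISWI ATPases, stood at 169 and 170 CPM in wild type and 113 in K3R3 (log2 -0.59, SE 0.21; adjusted p = 0.120 in edgeR). Baz2a, of the nucleolar remodeling complex with Smarca5, stood at 458 and 430 against 322 CPM (-0.46; adjusted p = 0.216). Phf21a and Ncor1, of the CoREST and NCoR complexes, had differences of -0.57 and -0.39, and the acetyltransferase Kat2b one of -0.52, none of them called.

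Markers of the cell types that the cultures could hold were read in the same fit. Of 15 ES cell markers 0 were called higher and 4 lower (Dppa5a, Klf4, Sox2 and Tfcp2l1), with a median log2 difference of -0.36 and a summed level of 8193 and 7326 CPM in wild type and 5669 in K3R3. Of 23 fibroblast markers 1 was called higher (Thy1) and 0 lower, with a median of 0.17. Their summed level was 1503 and 1441 CPM in wild type and 1151 in K3R3, most of it from Fn1, and without Fn1 it was 274 and 244 CPM in wild type and 288 in K3R3. Of 9 primitive endoderm markers 2 were called lower (Cubn and Gata6), with a summed level over 10 of 333 and 295 against 205 CPM, and a median of -0.68. Of the markers called in edgeR, DESeq2 called Tfcp2l1 and Cubn but not Dppa5a, Klf4, Sox2, Thy1 or Gata6. Among all tested genes edgeR called 2.02% higher and 0.542% lower. Of 11 neural markers 0 were called in edgeR or in DESeq2 (2 higher and 1 lower at an unadjusted p under 0.05 in edgeR), with a median of 0.27. Their summed level over 13 was 468 and 383 against 372 CPM, most of it from Stmn2, and without Stmn2 it was 127 and 147 against 170 CPM. The smallest count in the table is 1 in each library, so none of the markers with a row is at 0. Rows were found for 15 of 15 ES cell, 23 of 26 fibroblast, 10 of 12 primitive endoderm and 13 of 16 neural markers. In bulk RNA fewer cells of a type and less RNA per cell cannot be told apart, and the part of these markers in the differences above was not tested.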

How the data were processed

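Polyadenylated RNA of 3 libraries was analysed from 1 deposited table. The authors deposited a whole-number read count for each gene, with HTSeq 0.5.4p1, DESeq 1.10.1 and build mm9 named in the submitters' processing notes. Libraries were strand-specific per the labels' protocols. The aligner, the annotation and how strand was handled in counting are not given in the sources used here, so reads of the 17 of 55 genes with an exon over an opposite-strand exon in GENCODE M21 cannot be told from those of their partners. RPKM was deposited by the authors and divides each count by gene length and 1 total per library, per the file headers and the values. The deposited fold ratio and its log2, made by the authors, were not used, and their unadjusted p-value was used as a count. Gene length and class codes came from the same deposited table.

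Counts were fitted with edgeR 4.0.16 in R 4.3.3 with TMM factors on the 13829 genes that averaged 0.5 CPM or more. The quasi-likelihood test was two-sided, and its p-values were adjusted by Benjamini-Hochberg with a threshold of 0.05. There was 1 residual degree of freedom, from the wild-type libraries, so the test takes K3R3 to vary as they do. SE came from the weights of the fit. Differences against 1 library used log2 CPM, adding a prior of 1 count. The fit was tested on simulated data. Alternatives were RLE factors, totals implied by RPKM, DESeq2 1.42.0, no count filter, a minimum of 2 CPM and leaving out each wild-type library. The members, lists and rule for named genes were chosen with earlier results of these data known. All members could be named, and partner genes were named if called or among the 2 smallest p of their list.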

Additional observations from a re-analysis of the deposited data

How the results depend on the processing

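K3R3 had 1 library, so no spread of its own, and genes under 10 CPM were limited by counts. No paired analysis was possible because the K3R3 label carries no replicate number and there was 1 such library. Of the 55 genes, 1 was called in edgeR with TMM, with RLE factors and without the count filter, and 0 with DESeq2, with a minimum of 2 CPM and with the totals implied by RPKM. In the latter 2 settings Arid3c fell under the filter. With the implied totals and no filter, a setting chosen after seeing the data, 1 was called (Arid3c, log2 4.59, adjusted p = 0.000842 in edgeR). Over these settings its adjusted p lay between 0.000842 and 0.441. Over all genes DESeq2 called 59 (33 higher, 26 lower) against 355 (280 higher, 75 lower) in edgeR, and the implied totals gave 465 higher and 50 lower. Members called lower numbered 0 in each of these settings, and partner genes called numbered 0 in each, except that they were not counted with the implied totals and no filter.

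With the implied totals the median of the 55 became 0.016, 18 genes instead of 30 lay below both wild-type libraries (a count added after seeing the data), and 13 uncalled genes changed sign, to 0.0077 for Arid1b, 0.043 for Arid2, 0.038 for Arid4b, 0.024 for Arid5b, 0.089 for Chd1, 0.11 for Hdac11, 0.11 for Hdac4, 0.10 for Hdac8, 0.069 for Kdm1a, 0.024 for Kdm3b, 0.033 for Kdm5a, 0.0053 for Smarcc1 and 0.067 for Smarcc2. The change of totals alone produces this shift. Leaving out a wild-type library left no residual degree of freedom, so values only were computed. The median was then -0.11 to -0.058, Arid3c 3.56 to 4.30, and the paralogue ratios lower in K3R3 numbered 21 to 25 of 28. For 10 of the 55 genes the sign differed between the wild-type libraries.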
